A study of Mus musculus with 7 samples.

Results

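The genes described here are 8 members of the interleukin-1 (IL-1) family: the receptors Il1rl1, Il1r1, Il1rap, Il1rl2 and Il1r2, the receptor antagonist Il1rn, and the cytokines Il33 and Il18. They were 8 of the 54532 features in the table of gene counts, and were chosen by name with their response in these libraries already known. The values below therefore describe them and give no independent test of the choice. RNA was sequenced from C3H10T1/2, a mouse mesenchymal cell line able to form bone, fat and cartilage cells. For OB, 4 libraries were made from cells induced towards osteoblasts for 3 days with dexamethasone, which is a glucocorticoid drug, together with ascorbic acid at 50 µM and β-glycerophosphate at 10 mM. As control, 3 libraries came from untreated cells of the same line. No allele or transgene is named for either group, all libraries come from 1 line, and the agents were given together, so their effects cannot be told apart.

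Members of the IL-1 family signal through pairs of receptor chains. A ligand binds its own chain, which then recruits an accessory chain. This is the shared chain IL1RAP for IL-1, IL-33 and IL-36, and IL18RAP for IL-18. The intracellular domains of the pair activate MyD88, IRAK kinases and NF-kB. Decoy receptors, soluble receptors and the antagonist IL-1RA limit this signal. In bone, IL-1 is known to favour osteoclast formation and bone loss, while IL-33 and its receptor ST2, the product of Il1rl1, are made by stromal and osteoblast-lineage cells.

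The libraries held 21213328 to 46530017 counts on genes. Levels are given as CPM, the counts relative to the scaled library total, and 3 counts in a library equal 0.0639 to 0.139 CPM. The submitters' descriptions start with C1 for OB 1 and control 1 and with C2 for OB 2 and control 2, and carry no such number for OB 3, OB 4 and control 3. What these label sets stand for is not given. Control 3 stood apart from the other control libraries: its log2 CPM correlated at 0.959 with control 1 and 0.956 with control 2 across genes, against 0.989 between control 1 and control 2. The OB libraries also divided by the presence of a C number, though less widely. There r was 0.987 between OB 1 and OB 2 and 0.99 between OB 3 and OB 4, against 0.968 to 0.978 across these pairs. Several results in which control 3 was far from the other control libraries are given with and without it. All 8 mesenchymal markers were present, with summed levels of 27230 to 35970 CPM in OB and 35920 to 47500 CPM in control. The summed macrophage markers were at 6.25 to 11.4 CPM in OB and 8.26 to 12.2 CPM in control, with Adgre1 at 0 throughout. The endothelial sums were 5.79 to 10.3 CPM in OB and 6.03 to 12.5 CPM in control, with Tie1 at 0. Of these markers, Tek was at 2.87 to 7.53 CPM in OB and 1.945 to 9.255 CPM in control. Egfl7 was at 0.813 to 2.36 CPM in OB and 2.05 to 3.33 CPM in control. The epithelial sums were 0.371 to 1.38 CPM in OB and 1.36 to 3.62 CPM in control, with Epcam and Cldn4 at 0. Among them Cdh1 was at 0.324 to 1.30 CPM in OB and 1.15 to 3.25 CPM in control.

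Across the family, Il1rl1, which encodes the ST2 receptor, fell in the induced cultures. The means of the accessory chain Il1rap, the antagonist Il1rn and the type I receptor Il1r1 were higher in OB than in control. These genes did not pass the main edgeR test, which used all 7 libraries without a block, but passed with a block. Of the 8 members 7 had enough counts to be tested. Il1rl1 was lower in OB, none of the 7 was called higher, and 6 were not called by edgeR's quasi-likelihood test at a Benjamini-Hochberg adjusted p under 0.05. With an unadjusted p under 0.05 there were 1 higher and 1 lower member. Over all 15441 tested genes 4.32% were called higher and 3.72% lower, and 12.8% were higher and 12.4% lower at an unadjusted p under 0.05. With a block on replicate number, under which 5.38% of all tested genes were called higher and 3.38% lower, the tally differed: Il1rap, Il1rn and Il1r1 were called higher and Il1rl1 was not called. OB 4 has no control of its number, so it added nothing to the fold changes of that fit. A block on label set called 1433 of the 15441 genes higher and 1256 lower. Il1rap, Il1rn and Il1r1 were then called higher and Il1rl1 lower. The libraries of the groups did not overlap for 2 of the 7 tested members, beside 25.5% of all tested genes. Log2 fold changes were positive for 6 of the 7 and negative for 1, beside 7655 positive and 7786 negative over all tested genes. Control 3 was the lowest control library for each of those 6, and without it Il1rl2 turned to -0.07.

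**Figure D1:**
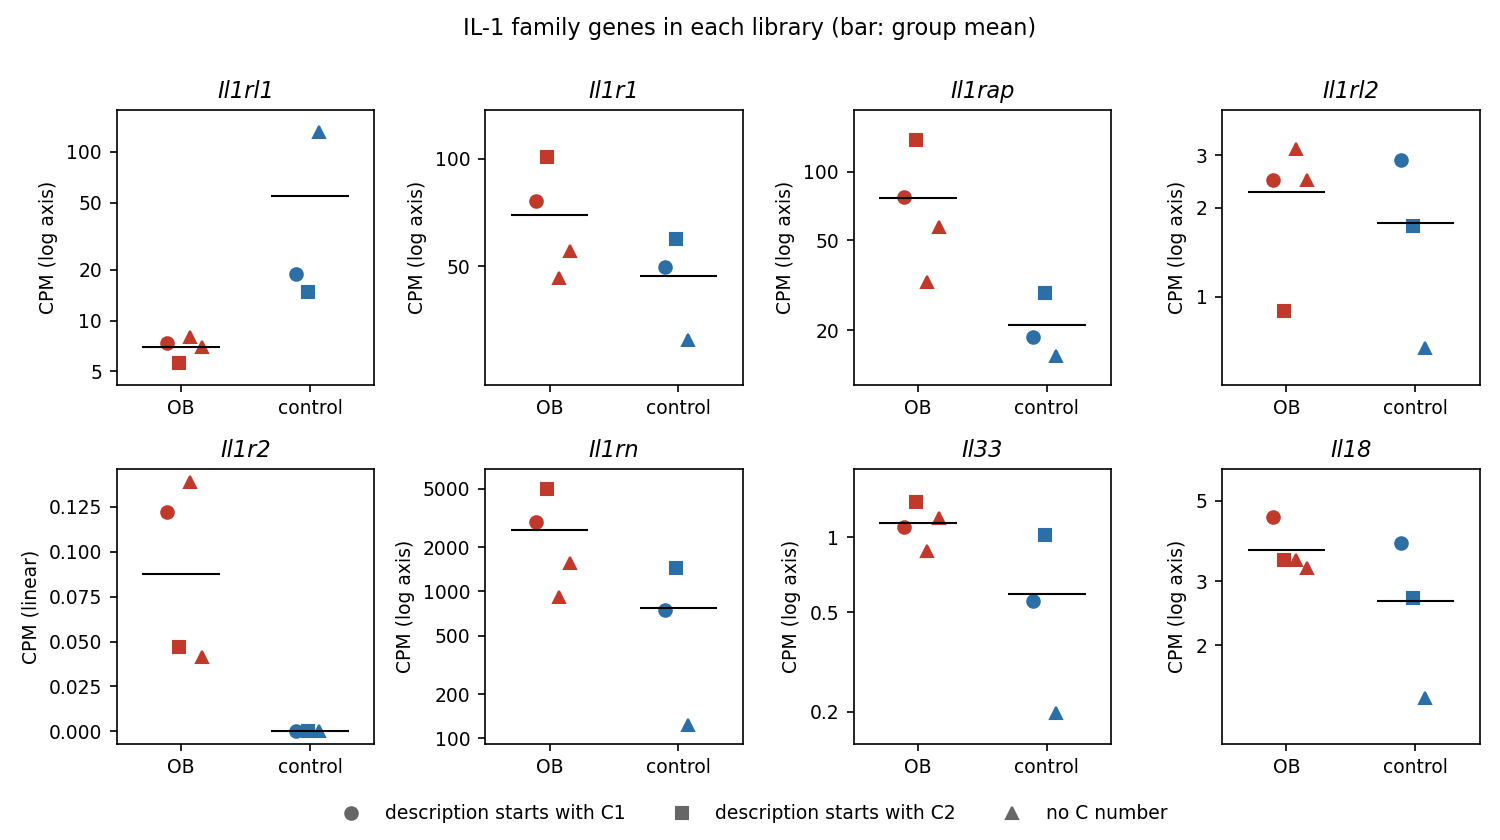
Level of each IL-1 family gene in every library, in CPM on a log axis (linear for Il1r2), with the 4 OB libraries left of the 3 control libraries. Marker shape gives the label set in the submitters' descriptions and the bar the group mean; control 3, the triangle on the control side, is the highest control library for Il1rl1 at 130.5 CPM and the lowest for the other tested members.

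Il1rl1 encodes ST2, the receptor of IL-33. The gene (ENSMUSG00000026069) lies on the plus strand at chr1:40429570-40465415 in mm10. It had 7.36, 5.57, 8.02 and 6.95 CPM in OB 1 to OB 4, against 18.9, 14.8 and 130.5 CPM in control 1 to control 3. Every OB library was below every control library. The OB libraries lay close together, the highest being 1.44 times the lowest, whereas control 3 was 7.73 times the mean of control 1 and control 2. The means were 6.98 ± 1.03 CPM in OB (SD, n = 4) and 54.7 ± 65.6 CPM in control (SD, n = 3). The log2 fold change was -2.97 ± 0.72 (SE), with an edgeR adjusted p of 0.0455. Without control 3 it was -1.28 with an adjusted p of 0.0142, so that the size of the change, though not its direction or call, rested on that library. With a block on replicate number the log2 fold change was -2.23 and the adjusted p 0.0770. With a block on label set they were -2.59 and 0.0289, and in the C1 and C2 libraries alone -1.39 and 0.0241. Leaving out any 1 of the 4 OB libraries raised the adjusted p above the threshold, to at most 0.123.

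Cells of blood origin are a known site of ST2, and their markers were low or at 0. The summed markers of mast cells and basophils were at 0.324 to 1.08 CPM in OB and 0.476 to 1.57 CPM in control, with Kit, Fcer1a, Mcpt4 and Tpsb2 at 0 in all 7 libraries. The summed markers of T cells and type 2 innate lymphoid cells were at 2.54 to 4.87 CPM in OB and 4.13 to 4.64 CPM in control, with Cd3e, Cd3g, Il7r and Klrg1 at 0 throughout. In control 3, which had the most Il1rl1, the mast cell sum was 0.476 CPM, the T cell sum 4.60 CPM, of which Gata3 made 4.52 CPM, and the macrophage sum 12.2 CPM, the highest of the 7 libraries, of which Cd14 made 11.4 CPM. The part of such cells in the Il1rl1 level was not tested.

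Il1rl1 is known to be transcribed from a distal start in haematopoietic cells and from a proximal start in fibroblasts, and splicing yields a membrane receptor or a soluble decoy that lacks the membrane anchor. GENCODE M21 lists 5 transcripts, and the counts used here are per gene, so starts and forms could not be told apart. The 250 bases before each of the 2 starts that RefSeq gives on GRCm38.p6 are shown because this was the called member. The first is chr1:40429320-40429569 and the second chr1:40439379-40439628, both on the plus strand, with matches to AGATAA on either strand, a core of GATA factor sites, in capitals.
Il1rl1 distal start: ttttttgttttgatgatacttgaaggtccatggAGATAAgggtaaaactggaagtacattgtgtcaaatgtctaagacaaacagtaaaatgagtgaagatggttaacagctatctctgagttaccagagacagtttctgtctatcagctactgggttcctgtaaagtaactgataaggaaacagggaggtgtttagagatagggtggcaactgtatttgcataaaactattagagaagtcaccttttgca
Il1rl1 proximal start: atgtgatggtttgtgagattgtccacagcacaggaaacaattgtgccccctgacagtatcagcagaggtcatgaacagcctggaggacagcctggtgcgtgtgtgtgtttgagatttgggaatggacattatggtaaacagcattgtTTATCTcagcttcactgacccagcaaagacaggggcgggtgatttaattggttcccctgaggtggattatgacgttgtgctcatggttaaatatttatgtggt
The match lay 217 bases before the first start and 103 bases before the second. AGATAA was found in 9.99% of 32851 RefSeq windows of this length, and among the 13 windows of the 8 members in these 2. Neither window held a match to TGANTCA, a core of AP-1 sites, to AGAACA, part of the site that the glucocorticoid receptor binds, or to the NF-kB consensus.

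The 5 genes most like Il1rl1 by Pearson correlation of log2 CPM over the 7 libraries were Set, Npm3, Slk, Tpi1 and Agfg1, at r of 0.994, 0.993, 0.991, 0.991 and 0.991 among 10902 genes. Without control 3, a comparison chosen after seeing the data, these r were 0.964, 0.960, 0.948, 0.944 and 0.960. The libraries share treatment and label set, and r is a description. Tpi1, a glycolytic enzyme, had 181, 192, 193 and 180 CPM in OB 1 to OB 4, against 276, 267 and 646 CPM in control 1 to control 3. Set, a histone chaperone, had 194 to 207.5 CPM in OB, against 251, 255.5 and 450 CPM in control 1 to control 3. In each of the 5 genes control 3 was the highest library and every OB library was below every control library. The genes were chosen for likeness to Il1rl1 over these same libraries, so this pattern follows from the choice.

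Il1rap encodes the accessory chain that the receptors for IL-1, IL-33 and IL-36 share. It lies at chr16:26581704-26730117 and had 77.4, 138.5, 32.8 and 57.0 CPM in OB 1 to OB 4, against 18.7, 29.1 and 15.4 CPM in control 1 to control 3. The groups did not overlap, although the lowest OB library, OB 3, was close to the highest control library, control 2. The means were 76.4 ± 45.2 CPM in OB (SD, n = 4) and 21.0 ± 7.17 CPM in control (SD, n = 3). The log2 fold change of 1.86 ± 0.48 (SE) had an edgeR adjusted p of 0.0522, which missed the threshold. With the replicate block the value was 1.81 and the adjusted p 0.0146, and with a block on label set 1.91 and 0.0048. Without OB 3 the log2 fold change was 2.11 and the adjusted p 0.0362. Of the exon bases of Il1rap 4.86% lie under Gm20319 on the opposite strand, where fragments that touch both genes were counted for neither; Gm20319 itself had 42 counts over all libraries.

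Il1r1, at chr1:40225080-40317257, encodes the signalling receptor of IL-1α and IL-1β. It had 76.2, 101, 46.5 and 55.2 CPM in OB 1 to OB 4, against 49.8, 59.8 and 31.2 CPM in control 1 to control 3. OB 3 and OB 4 fell among the control libraries, so the groups overlapped. This gave a log2 fold change of 0.57 ± 0.31 (SE) and an edgeR adjusted p of 0.290. Within label sets the ratio of OB to control was 1.53 for C1, 1.69 for C2 and 1.49 to 1.77 for the libraries without a C number. With the replicate block the log2 fold change was 0.65 and the adjusted p 0.0217, and with a block on label set they were 0.69 and 0.0070.

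Il1rl2 encodes the receptor of the IL-36 cytokines and lies at chr1:40324610-40367562. It had 2.48, 0.893, 3.15 and 2.48 CPM in OB 1 to OB 4, against 2.90, 1.74 and 0.675 CPM in control 1 to control 3. The lowest OB library was OB 2 and the lowest control library control 3, and the groups overlapped. The log2 fold change was 0.32 ± 0.55 (SE) with an edgeR adjusted p of 0.763. Its direction depended on the libraries: OB over control was 0.857 for C1 and 0.514 for C2, but 3.68 and 4.67 for OB 4 and OB 3 over control 3, and without control 3 the log2 fold change was -0.07.

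Il1r2 encodes a decoy that binds IL-1 without signalling. The gene lies at chr1:40074079-40125231 and had 3, 2, 3 and 1 counts in OB 1 to OB 4, against 0 counts in each control library. Pooled over libraries this was 0.0797 CPM in OB, with a 95% exact Poisson interval of 0.0365 to 0.151 CPM, and 0 in control with an upper limit of 0.0344 CPM. The intervals cover counting error only, and the OB level rests on 9 counts in all. It was too rare to be tested.

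Il1rn encodes IL-1RA, which binds the type I receptor without signalling. It lies at chr2:24336853-24351494 and was the most abundant member by group mean in OB and in control, at 0.0935 to 0.492% of all counts in OB and 0.0120 to 0.143% in control. It had 2967, 5023, 919.5 and 1570 CPM in OB 1 to OB 4, against 743, 1438 and 123 CPM in control 1 to control 3. OB 3 was below control 2, so the groups overlapped, and control 3 was 0.112 times the mean of control 1 and control 2. In control 3 it was close to Il1rl1, which had 130.5 CPM there. Per length, Il1rn ranked 51st, 23rd, 221st and 114th of the 15441 tested genes in OB 1 to OB 4, against 281st, 144th and 2482nd in control 1 to control 3. The means were 2620 ± 1816 CPM in OB (SD, n = 4) and 768 ± 658 CPM in control (SD, n = 3). The log2 fold change was 1.77 ± 0.83 (SE) with an edgeR adjusted p of 0.230, and without control 3 it was 1.26 with 0.293. With the replicate block it was 2.23 and the adjusted p 0.0094, and with the label-set block 2.44 and 0.0099. The ratio of OB to control was 3.99 for C1 and 3.49 for C2, and 7.498 and 12.8 for OB 3 and OB 4 over control 3.

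IL-1RA is known in secreted and intracellular forms made from different first exons. GENCODE M21 lists 6 Il1rn transcripts, which the counts per gene do not separate. The 250 bases before the first 2 of 3 RefSeq starts are shown because this was the most abundant member and only its first window, of the 13, held TGANTCA (in capitals, 141 bases before the start). The windows are chr2:24336610-24336859 and chr2:24345041-24345290 on the plus strand of GRCm38.p6.
Il1rn first start: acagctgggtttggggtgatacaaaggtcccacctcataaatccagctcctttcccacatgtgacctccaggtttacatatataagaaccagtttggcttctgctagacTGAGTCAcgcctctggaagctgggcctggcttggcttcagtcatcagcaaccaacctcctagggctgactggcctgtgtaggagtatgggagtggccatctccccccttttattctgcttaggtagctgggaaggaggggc
Il1rn second start: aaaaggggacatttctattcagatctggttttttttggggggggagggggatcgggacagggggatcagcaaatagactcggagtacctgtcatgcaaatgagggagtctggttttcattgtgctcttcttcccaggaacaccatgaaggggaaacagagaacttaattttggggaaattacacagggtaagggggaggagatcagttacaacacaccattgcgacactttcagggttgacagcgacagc
TGANTCA, read on both strands, was found in 6.75% of the 32851 windows. Neither Il1rn window held AGATAA, the glucocorticoid receptor motif AGAACA or the NF-kB consensus. Over all 13 windows AGAACA was found in 2, those of the second Il1r1 start and of Il18, beside 16.1% of all windows, and the NF-kB consensus in 1, that of the second Il1r1 start, beside 3.9%.

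Il33 and Il18 encode cytokines of the family, and both were detected at low levels. Il33, the ligand of ST2 and a nuclear protein released from damaged cells, lies at chr19:29925114-29960718. It had 1.10, 1.39, 0.881 and 1.20 CPM in OB 1 to OB 4, against 0.554, 1.03 and 0.198 CPM in control 1 to control 3. Only OB 3 fell below a control library, control 2. Its log2 fold change was 0.93 ± 0.48 (SE) with an edgeR adjusted p of 0.267. The lowest library, control 3, held 5 counts, and without it the log2 fold change was 0.55 with an adjusted p of 0.388.

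Il18, at chr9:50554827-50581840, encodes a cytokine that caspase-1 matures. It had 4.51, 3.43, 3.43 and 3.27 CPM in OB 1 to OB 4, against 3.83, 2.71 and 1.43 CPM in control 1 to control 3. The groups overlapped through control 1, and the log2 fold change was 0.45 ± 0.34 (SE) with an edgeR adjusted p of 0.440. The other 3 OB libraries lay between 3.27 and 3.43 CPM, below OB 1, and the highest OB library was 1.38 times the lowest. In the C1 and C2 libraries alone, which leave out control 3, the log2 fold change of Il18 was 0.27 with an edgeR adjusted p of 0.576. Leaving out 1 library gave 0.15 to 0.81.

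Levels of different genes were compared per kilobase of exon. In OB, Il1rn came first at 473 ± 328 CPM per kb (SD, n = 4), then Il1r1 at 10.96 ± 3.82, Il1rap at 6.73 ± 3.98, Il18 at 3.55 ± 0.56, Il1rl1 at 1.01 ± 0.15, Il33 at 0.396 ± 0.073, Il1rl2 at 0.331 ± 0.141 and Il1r2 at 0.0458 ± 0.0264 CPM per kb. Of neighbours in that order, the libraries of Il1r1 and Il1rap, of Il1rap and Il18, and of Il33 and Il1rl2 overlapped. In control, Il1rn again came first at 139 ± 119 CPM per kb (SD, n = 3), followed by Il1rl1 at 7.94 ± 9.52, Il1r1 at 7.38 ± 2.28, Il18 at 2.58 ± 1.17, Il1rap at 1.85 ± 0.63, Il1rl2 at 0.260 ± 0.163 and Il33 at 0.205 ± 0.144 CPM per kb, with Il1r2 at 0. Here Il1rl1 and Il1r1, Il18 and Il1rap, and Il1rl2 and Il33 overlapped. Thus Il1rl1 was the fifth member in OB and the second in control, where its place rested on control 3 at 18.9 CPM per kb, against 2.15 CPM per kb in the lowest control library.

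Of the 7 tested members 3 shared an order across libraries. Il1rn, Il1rap and Il1r1 were each highest in OB 2, then OB 1, OB 4 and OB 3, and among control libraries highest in control 2, then control 1 and control 3. This order was not particular to the family. The hypoxia gene Ndrg1 had it too, at 262, 488, 111 and 168 CPM in OB 1 to OB 4. Its control 1 to control 3 were at 184, 256 and 53.6 CPM. Casp4 also had this order, and its share over all genes was not counted. Control 3 was below control 1 and control 2 for 6 of the 7 tested members, at 0.112 times their mean for Il1rn, 0.251 for Il33, 0.291 for Il1rl2, 0.437 for Il18, 0.569 for Il1r1 and 0.643 for Il1rap. Il1rl1 was the exception. Within label sets, which compare 1 library with 1 or 2, Il1rl1 was at 0.389 times control in OB for C1, 0.376 for C2, and 0.0533 and 0.0615 for OB 4 and OB 3 over control 3. Il1rap was 4.14 times control in OB for C1, 4.76 for C2, and 2.14 and 3.71 for OB 3 and OB 4. Il1r1, Il1rap, Il1rn, Il33 and Il18 were above control in every label set and Il1rl1 below it in every one; the differences between sets were not tested.

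**Figure D2:**
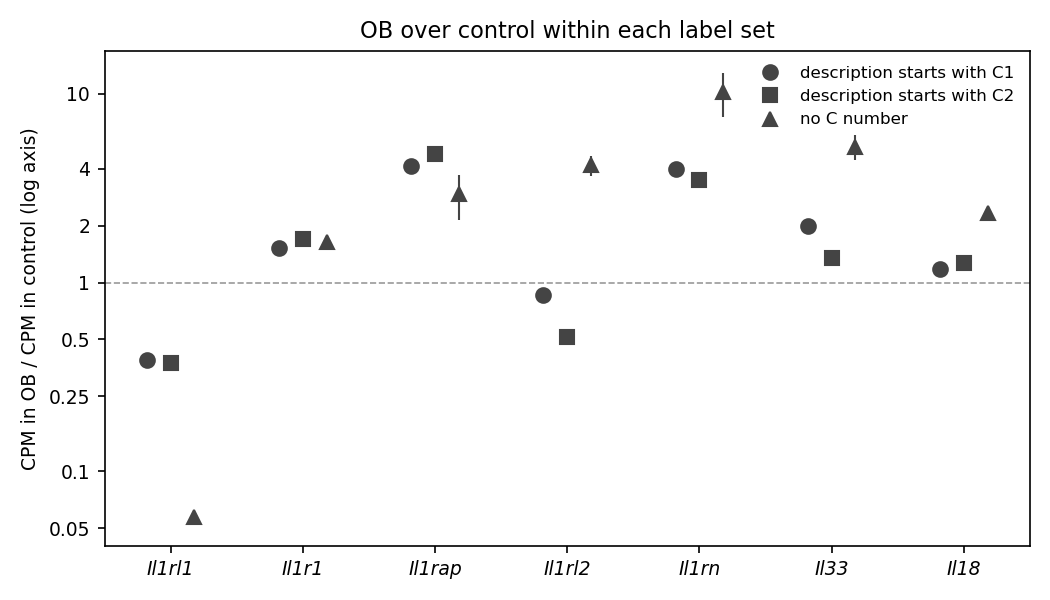
Ratio of the CPM in OB to the CPM in control for each tested member within each label set, on a log axis; the triangle is the mean of OB 3 and OB 4 over control 3 and its bar spans the 2 libraries. Il1rl1 lies below 1 in all 3 sets, at 0.389, 0.376 and 0.0574, and Il1rl2 lies on both sides of 1.

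Label sets and replicate numbers largely coincide, so a shared batch and true pairing cannot be told apart. Over all genes DESeq2 called 1292 of 18785 (6.88%) higher and 1128 lower. It gave Il1rap an adjusted p of 0.0006 and gave no adjusted p for Il1rl1, at log2 fold changes of 1.86 and -2.99. Il1rl1 had 168 to 3287 counts per library, 3287 of them in control 3. The much rarer Sigirr did receive a DESeq2 adjusted p, of 0.0254. Why the value for Il1rl1 is missing was not tested. Limma-voom with quality weights gave Il1rl1 a log2 fold change of -1.36 with an adjusted p of 0.0524, and Il1rap 1.36 with 0.0629.

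**Figure D3:**
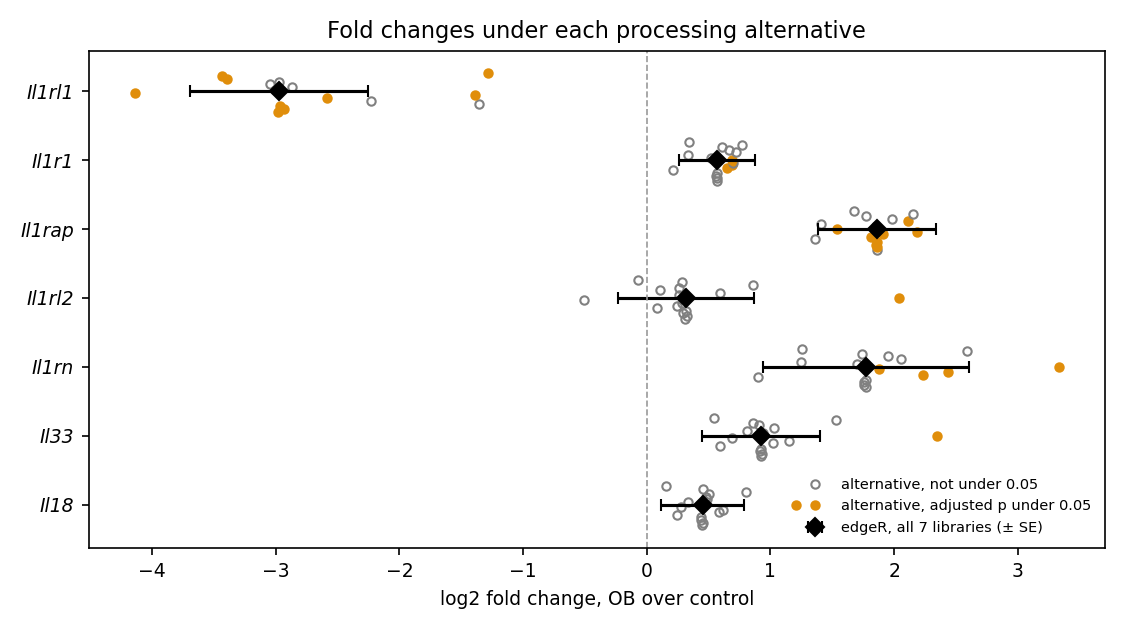
Log2 fold change of OB over control for the 7 tested members: the diamond is the edgeR value over all 7 libraries with its SE, and each circle is 1 alternative processing or set of libraries, filled where the adjusted p was under 0.05. Il1rl1 stays negative between -4.14 and -1.28, and Il1rl2 takes both signs.

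Of the 8 members 4 lie in 1 cluster of receptor genes on chromosome 1. The 6 genes Il1r2, Il1r1, Il1rl2, Il1rl1, Il18r1 and Il18rap follow each other over 477.6 kb. Levels in this cluster differed widely: in OB, Il1r1 was at 10.96 and Il1r2 at 0.0458 CPM per kb. Within 500 kb of the middle of Il1rl1 the table lists 20 features, of which 10 are protein coding and 5 were tested. Of these 5, Il1rl1 alone was called. Il18rap, the accessory chain of the IL-18 receptor, had 0.773, 0.259, 0.371 and 0.248 CPM in OB 1 to OB 4, against 1.02, 0.740 and 4.45 CPM in control 1 to control 3. Like Il1rl1 it was highest in control 3, at 5.04 times the mean of the other control libraries, but OB 1 overlapped control 2. Its log2 fold change was -2.32 ± 0.71 (SE) with an edgeR adjusted p of 0.0895, and without control 3 it was -1.13 with an adjusted p of 0.213. Il18r1, the ligand-binding chain, had 3 counts in OB and 5 in control. The nearest tested gene outside the cluster, Mfsd9, differed by a log2 fold change of -0.18 ± 0.34 (SE) with an adjusted p of 0.789.

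**Figure D4:**
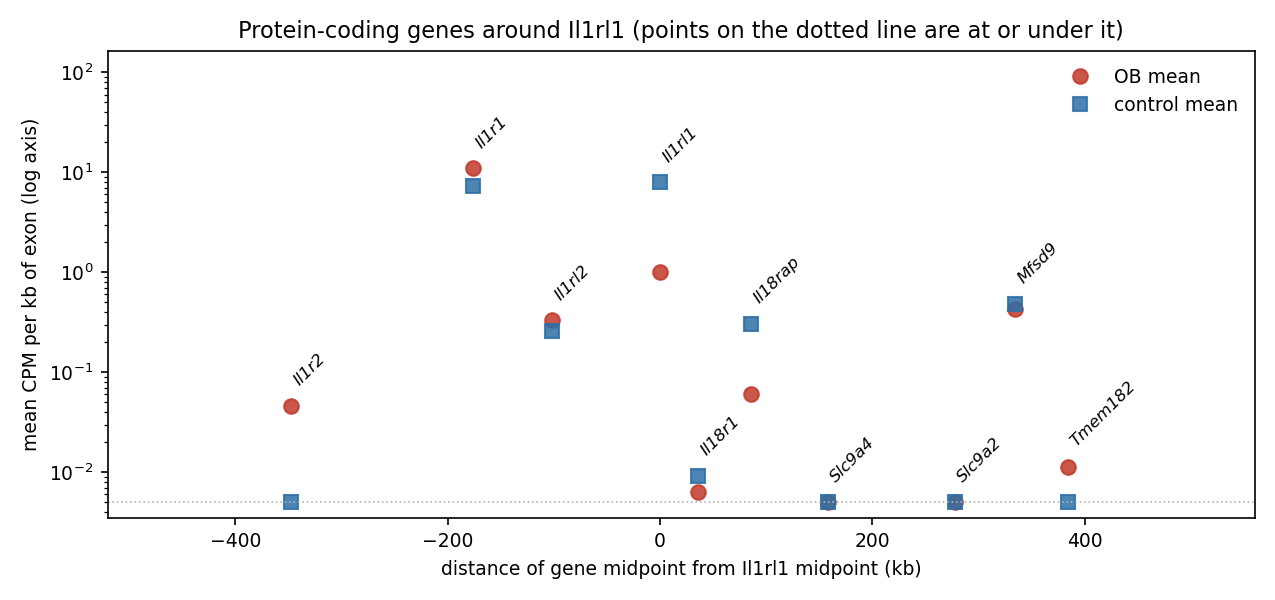
Mean level of each protein-coding gene within 500 kb of Il1rl1, in CPM per kb of exon on a log axis, against the distance of its midpoint from that of Il1rl1 in kb, for OB (circles) and control (squares). Il1rl1 and Il18rap have the control mean well above the OB mean, and Il1r1 does not.

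The other ligands of the family were almost absent. Il1a had 8 counts over the OB libraries and 12 over the control libraries, which is 0.0709 CPM in OB and 0.112 CPM in control with overlapping Poisson intervals, and Il1b had 2 counts in each group. The IL-36 cytokines, listed as Il1f6, Il1f8 and Il1f9, had 1, 0 and 11 counts in OB and 0, 0 and 8 counts in control. Their antagonist, listed as Il1f5, had 11 counts in OB and 3 in control, and Il1f10, which encodes IL-38, had 19 in OB and 6 in control. Only Il18bp, the binding protein that neutralises IL-18, was tested of the 8 genes in this list. It had 2.59 to 4.76 CPM in OB, against 2.70 to 3.47 CPM in control, with a log2 fold change of 0.27 ± 0.26 (SE) and an edgeR adjusted p of 0.558. Of 5 other receptors 2 were tested and none was called by edgeR, where 1 was lower at an unadjusted p under 0.05, while DESeq2 called 2 lower, Il18rap and Sigirr. Il1rapl1, a neuronal member of the receptor family, had a log2 fold change of 0.57 ± 0.50 (SE). Sigirr, an inhibitory receptor of the family, was too rare for the edgeR test, with 14 counts in OB and 66 in control. Its pooled level was 0.124 CPM in OB (95% exact Poisson interval 0.0678 to 0.208) and 0.615 CPM in control (0.476 to 0.783), and every OB library was below every control library. The DESeq2 log2 fold change of Sigirr was -2.13 with an adjusted p of 0.0254.

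Most genes of the signalling path below the receptors did not pass the test. All 16 genes of that list were tested, of which 1 was called higher and 15 were not called (2 higher and 1 lower at an unadjusted p under 0.05), with a median log2 fold change of -0.04 beside -0.004 over all tested genes. The called gene was Irak3, an inhibitory member of the IRAK family that limits signalling by IL-1 receptors. It had 21.9, 16.6, 23.1 and 20.6 CPM in OB 1 to OB 4, against 8.13, 6.72 and 5.28 CPM in control 1 to control 3, with no overlap. Its log2 fold change was 1.61 ± 0.20 (SE) with an edgeR adjusted p of 0.0068, and it was called whichever of the 7 libraries was left out. Ube2n and Map3k7, a ubiquitin-conjugating enzyme and the kinase TAK1, had log2 fold changes of -0.15 ± 0.13 and -0.09 ± 0.11 (SE), and neither was called.

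Of the 8 genes that mature these cytokines 4 were tested and none was called, although DESeq2 called 2 higher and 2 had a higher value at an unadjusted p under 0.05 in edgeR. For Casp8 the log2 fold change was -0.23 ± 0.14 (SE) and for Gsdmd, the pore-forming gasdermin D, 0.56 ± 0.24 (SE), with edgeR adjusted p-values of 0.336 and 0.198. Casp1, which encodes caspase-1, did not pass the filter for the edgeR test. It had 20, 64, 1 and 2 counts in OB 1 to OB 4, against 1, 0 and 2 counts in control 1 to control 3. Of 24 genes known to respond to IL-1, 14 were tested, of which 3 were called higher and 11 were not called, with a median log2 fold change of 0.31; at an unadjusted p under 0.05 there were 5 higher and 2 lower. Nfkbia, the inhibitor of NF-kB that is also a known glucocorticoid target, had 106, 109, 69.0 and 76.9 CPM in OB 1 to OB 4, against 41.8, 37.0 and 31.7 CPM in control 1 to control 3. The log2 fold change was 1.29 ± 0.19 (SE) with an edgeR adjusted p of 0.0120, or 0.0505 without control 2. Nfkbiz, a nuclear regulator of NF-kB target genes, had 24.0 to 29.0 CPM in OB, against 9.43, 9.63 and 18.0 CPM in control 1 to control 3. Its log2 fold change was 1.11 ± 0.24 (SE) with an edgeR adjusted p of 0.0340, which was passed in 1 of the 7 fits that left out a library. In the C1 and C2 libraries alone, which leave out control 3, the log2 fold change of Nfkbiz was 1.54 with an edgeR adjusted p of 0.0054.

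Lcn2, an iron-binding secreted protein, had 5.86, 21.3, 0.649 and 1.45 CPM in OB 1 to OB 4, against 1 count over the control libraries, in control 1. The pooled ratio was 1040 with an exact interval of 187 to 41300 for counting error only, and the edgeR adjusted p was 0.0281, passed in 3 of the 7 fits that left out a library. OB 2 held 906 of the 1099 OB counts, and without it the fitted log2 fold change, which depends on the prior count, was 7.64 instead of 9.13. Cxcl2 and Csf2 are chemokine and growth factor genes with 0 counts in every library. Ptgs2, the inducible cyclooxygenase, had 7.52 to 23.6 CPM in OB, against 28.6, 20.7 and 142 CPM in control 1 to control 3, with an adjusted p of 0.110 and a log2 fold change of -2.03, or -0.67 without control 3. Over the 5 lists 37 of 61 genes were tested by edgeR, and their median log2 fold change was 0.10. Of the 37, 4 were called higher and 0 lower, beside 4.32% higher and 3.72% lower of all tested genes. With an unadjusted p under 0.05 there were 9 higher and 4 lower of the 37, beside 12.8% and 12.4% of all tested genes. DESeq2, whose tested genes also included Sigirr, called 8 higher and 3 lower of the 61 listed genes. Over all genes it called 6.88% higher and 1128 of 18785 lower. The 18785 are only the genes with a DESeq2 adjusted p. The 61 include 4 genes at 0 counts in every library, so the 2 shares are not directly comparable.

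**Figure D5:**
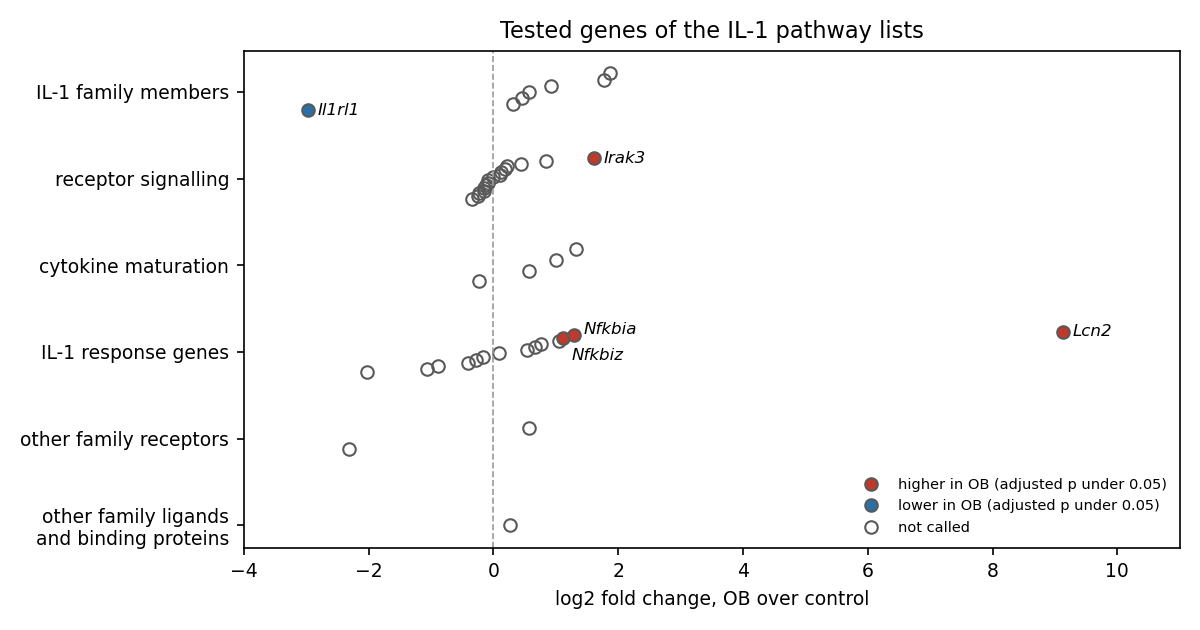
Log2 fold change of OB over control for each tested member and each tested gene of the 5 IL-1 pathway lists, stacked by value within a list; filled points have an adjusted p under 0.05. Irak3, Nfkbia, Nfkbiz and Lcn2 are the called genes among the lists, and Il1rl1 among the members; the fitted value of Lcn2 rests on 1 control count.

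Other genes moved with the groups or with control 3 alongside the members, and their part in the member values was not tested. All 10 mitosis genes were lower in OB, with summed levels of 342 to 510 CPM in OB and 836 to 2318 CPM in control. Kif20a, Ccnb2 and Cdc20, the first by p, had log2 fold changes of -2.09 ± 0.27, -2.08 ± 0.29 and -2.16 ± 0.31 (SE). Of 10 hypoxia genes 1 was called higher and 2 lower: Adm, which encodes adrenomedullin, at 1.97 ± 0.23, P4ha1, a collagen prolyl hydroxylase, at -1.30 ± 0.28, and Ak4, a mitochondrial adenylate kinase, at -3.43 ± 0.76 (SE). Ak4, like Il1rl1, was highest in control 3, with 1.26, 2.49, 1.21 and 2.32 CPM in OB 1 to OB 4, against 7.28, 5.78 and 46.7 CPM in control 1 to control 3. Its log2 fold change was -1.84 with an adjusted p of 0.0262 without control 3, and -2.89 with 0.0888 under the replicate block. Ak4 and P4ha1 were each called in 3 of the 7 fits that left out a library. Of 10 serum response genes none was called by edgeR or by DESeq2, with 1 higher and 1 lower at an unadjusted p under 0.05. Jun and Egr1, its most abundant genes, had log2 fold changes of 0.19 ± 0.37 and 0.26 ± 0.92 (SE), which became -0.14 and -0.40 without OB 1. Prl2c2, of the same list, was in control 3 at 20.9 times the mean of the other control libraries and Fosl1 at 5.01 times.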

How the data were processed

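RNA of 7 C3H10T1/2 libraries was sequenced after Trizol extraction and TruSeq v2 preparation, per the labels' protocols, a kit that does not mark strand. Trimmomatic, HISAT2, featureCounts and mm10 are named in the submitters' processing notes, without versions for the first pair. What the authors deposited, per the file headers, are raw counts per gene from featureCounts 1.6.4 on Ensembl 94 exons, with no strand, multi-mapping or overlap option, so fragments shared by genes were not counted. Columns are numbered, and were matched to samples by the sequence of input names in the command stored in the header, which could not be checked independently. The design text calls the replicates biological; p-values measure only the spread among these 7 libraries.

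The members and the 14 gene lists beside them were chosen with earlier results of these data known. Of each list up to 3 called genes in each direction were named in order of p, and where fewer than 2 were called, the 2 tested genes of highest mean CPM. Il1a, Il1b, the IL-36 cytokines, Il1f5, Il1f10, Sigirr, Il18r1, Casp1, Casp4, Cxcl2, Csf2, Ptgs2, Ndrg1, Prl2c2 and Fosl1 were named after their values were seen. So were the markers Tek, Egfl7 and Cdh1. The tests used R 4.3.3 and edgeR 4.0.16 (filterByExpr, TMM factors of 0.981 to 1.02, quasi-likelihood test, Benjamini-Hochberg over 15441 genes at 0.05; common biological coefficient of variation 26.9%). SE is the absolute log2 fold change divided by the square root of F. CPM uses TMM-scaled totals, log2 CPM a prior count of 2. The scripts were tested on simulated data. Alternatives were other scaling, no filter, DESeq2 1.42.0, limma 3.58.1 voom with quality weights, blocks, label sets and leaving out each library.

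Replicate numbers were taken to pair the samples by a bound of 0.1 on the correlation of same-numbered deviations from group means, which was 0.167, 0.523 and 0.398 for numbers 1, 2 and 3. OB 1 correlated more with control 2 (0.209), and OB 4 correlated with control 3 at 0.27. Pairs of unlike number thus also passed the bound, so passing it cannot show that samples were paired by number. OB 4 has no control of its number. In the replicate block OB 4 therefore had its own term and added nothing to the fold changes, which rest on numbers 1, 2 and 3. Libraries of 1 group differed by more than sampling noise, with chi-square per degree of freedom of 15.0 (OB 3 and OB 4) to 165.8, so each counts once.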

Additional observations from a re-analysis of the deposited data

Results flagged for a closer look

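Il18 was at 4.51 CPM in OB 1, above the other 3 OB libraries, which lay between 3.27 and 3.43 CPM. Jun was at 194 CPM in OB 1, against 91.2 to 101 CPM in the other OB libraries. In each case the gap to the nearest library, as a share of the group's range, was above the bound that Dixon's test sets for 4 libraries, at 0.868 for Il18 and 0.901 for Jun. These were 2 of 34 genes examined, and chance flags about 1 in 20.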

How the results depend on the processing

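Over 7 members and their alternatives 85 of 111 values kept direction and side of the threshold, 6 lost the call, 18 gained it and 2 reversed; 6 of the 18 came from the libraries without a C number, with 1 control. Il1rl2 reversed to -0.50 in C1 and C2 libraries alone and to -0.070 without control 3; leaving out 1 library gave it -0.070 to 0.86. Of other named genes, Egr1 reversed to -0.27 with the label-set block, Il18bp to -0.043 and Ube2n to 0.037 in C1 and C2 libraries, and Jun to -0.85 and Egr1 to -3.09 without a C number; leaving out 1 library gave -0.14 to 0.67 for Jun, -0.40 to 1.18 for Egr1 and -0.38 to 0.030 for Mfsd9. The replicate block gave 831 genes higher and 522 lower, against 667 and 574 without it, and 6 and 0 pathway genes, against 4 and 0; it ended the calls of Il1rl1 (-2.23, adjusted p 0.0770) and Ak4, made those of Il1rap, Il1rn and Il1r1, and changed no other member's call. Genes higher and lower numbered 1292 and 1128 with DESeq2, 1247 and 1081 with limma-voom, 1433 and 1256 with the label-set block, 1030 and 560 in C1 and C2 libraries, and 3052 and 3413 in the libraries without a C number, where the lone control was assumed to vary like OB. Pathway genes higher and lower were 8 and 3 with DESeq2, 6 and 1 with limma-voom, 8 and 2 with the label-set block, 10 and 0 in C1 and C2 libraries, and 9 and 11 without a C number. Leaving out 1 library gave 190 to 575 genes higher and 104 to 703 lower, and 1 to 3 and 0 to 1 pathway genes. The cause was not tested. Counts limit Il1r2, Il33 in control 3 and Sigirr; forms of Il1rl1 and Il1rn are not resolved.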
